A study of Mus musculus with 2 samples.

Results

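Growth hormone (Gh), prolactin (Prl) and the receptors through which somatotropes and lactotropes are driven or restrained (Ghrhr, Ghsr, Drd2 and Prlr) were followed in 2 bulk RNA-seq libraries of primary mouse pituitary cells. The 6 genes were taken by symbol for their roles in these cell types, not by a cut on their values, and all 6 were found by Ensembl identifier among the 47069 genes counted. Both libraries came from whole glands of C57BL/6 females aged 10 to 12 weeks that cycled at random, so the stage of the oestrous cycle was not set. Collagenase and then pancreatin freed the cells, and 500000 to 700000 cells pooled from 5 pituitaries made up each sample. The dissociated cells of 1 sample went directly into RNA-Best, a buffer designed to stabilize RNA within intact single cells, and those of the other into RNAlater, the reference reagent, although the labels also mention plating in culture medium. Each reagent was represented by 1 library, so no difference below has a replicate check and no test was run. The 95% intervals reflect the number of reads alone, that is counting error only, and no spread between samples. They are too narrow where PCR copies of a molecule were counted more than once. The RNA-Best library held 53915047 counts and the RNAlater library 44917492, so that a level of 1 CPM, the count scaled by the library total, stood for 53.9 and 44.9 reads. The study made these libraries to compare transcript levels in the new buffer with those in an established one.

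Somatotropes secrete growth hormone, and lactotropes secrete prolactin. Both descend from precursors that depend on the transcription factor Pou1f1 (Pit-1), and the hormones themselves are related proteins that evolved from a common ancestor. Growth hormone-releasing hormone acts on Ghrhr, a receptor coupled to Gs, and raises cyclic AMP in somatotropes, whereas the stomach hormone ghrelin acts on Ghsr. Dopamine from the hypothalamus acts on Drd2, a receptor coupled to inhibitory G proteins, and holds prolactin secretion down. Prlr is the receptor for prolactin and, like the growth hormone receptor, signals through Jak2 and Stat5.

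The qPCR primers of the study for the hormones are shown because they mark stretches of these messages that can be amplified, in the direction 5′ to 3′ and in lower case throughout.
Gh forward: acctggaagagggcatcc
Gh reverse: gaggatctgcccaacacg
Prl forward: ggtcagcccagaaagcag
Prl reverse: attttggcagaacagcaggt
The Gh pair matched the only annotated Gh transcript (Gh-201, 862 bases, 5 exons) from base 535 to base 605, across exons 4 and 5 and inside the coding sequence. The Prl pair matched Prl-202 (895 bases, 5 exons) from base 74 to base 138, across exons 1 and 2 and inside the coding sequence, and it also matched Prl-203 (888 bases). In Prl-201, an annotated form of 886 bases, the Prl forward primer had no exact match. The deposited counts are sums per gene and cannot tell such forms apart.

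Promoters are shown for the most and the least abundant gene of the group, Prl and Ghsr. RefSeq promoter sequence (GRCm38.p6) was found for 4 of the 6 genes. The 250 bases before the annotated start are given in lower case, and capitals mark TATAAA on the gene's strand and TATNCAT, a core of Pit-1 sites, on either strand (ATGNATA on the other).
Prl, chr13:27057320-27057569, plus strand: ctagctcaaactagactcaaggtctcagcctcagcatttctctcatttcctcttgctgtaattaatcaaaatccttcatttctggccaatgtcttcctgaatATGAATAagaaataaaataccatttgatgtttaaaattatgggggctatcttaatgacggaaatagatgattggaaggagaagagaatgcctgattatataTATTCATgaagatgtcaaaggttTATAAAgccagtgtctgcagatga
Ghsr, chr3:27371101-27371350, plus strand: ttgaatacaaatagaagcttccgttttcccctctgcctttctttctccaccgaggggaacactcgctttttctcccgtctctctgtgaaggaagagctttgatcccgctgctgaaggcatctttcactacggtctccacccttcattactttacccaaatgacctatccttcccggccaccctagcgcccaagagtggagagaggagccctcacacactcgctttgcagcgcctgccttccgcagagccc
The Prl promoter held TATTCAT beginning 47 bases before the start, ATGAATA beginning 148 bases before it, and TATAAA beginning 24 bases before it. TATNCAT was present in 7.92% of 32851 promoter sequences of this length and TATAAA in 7.59%. Neither word was found in the windows of Ghsr, Drd2 or the 3 alternative starts of Prlr. The GC content of the Prl window was 35.2%, against 54% for Ghsr, 68.8% for Drd2 and a median of 52.4% over all promoter sequences. The 3 Prlr windows held 48%, 44.8% and 32.8%, the last of them less than Prl. These matches describe letters in the windows shown, and binding was not measured.

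Prl was the most abundant gene in each library. Prl (ENSMUSG00000021342.13, chromosome 13, 27057570 to 27065205, GRCm38, plus strand) was counted 12705284 times in RNA-Best and 7739373 times in RNAlater. Of all counts it took 23.6% with RNA-Best (23.55% to 23.58%, by the Clopper-Pearson method) and 17.2% with RNAlater (17.22% to 17.24%). Its CPM was thus 1.37 times as high in RNA-Best (interval 1.366 to 1.369). In bulk samples, more lactotropes and more Prl message per lactotrope cannot be told apart. With 1 library per reagent, neither can be told apart from differences of reagent, cell pool or library.

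Gh, the growth hormone gene, ranked second in both libraries. Gh (ENSMUSG00000020713.6, chromosome 11, 106300271 to 106301865, minus strand) was counted 3290987 times in RNA-Best and 2667143 times in RNAlater. Its share of the RNA-Best library was 6.10% (6.098% to 6.110%), and of the RNAlater library 5.94% (5.931% to 5.945%). The ratio of CPM was 1.03 (1.026 to 1.030). The share of Gh rested in part on the large Prl count beside it. With Prl left out of the total, Gh took 7.99% of the RNA-Best library (7.978% to 7.994%) and 7.17% of the RNAlater library (7.166% to 7.182%).

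The Prl and Gh counts were not whole numbers, so they include fractions of reads that the counting had divided. The placental prolactin family, the closest relatives of Prl, had almost no counts. Summed over its 25 genes there were 3 counts in RNA-Best and 8 in RNAlater, and 19 of the genes had none in either library. The largest value was 6 counts, for Prl3d1 in RNAlater. An antisense gene, Gm47888, overlaps the annotated start of Prl and was not among the genes counted. No annotated gene lay within 5 kb of Gh, Ghrhr, Ghsr or Drd2.

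Ghrhr, the receptor for growth hormone-releasing hormone, was the most abundant of the receptors. Ghrhr (ENSMUSG00000004654.6, chromosome 6, 55376295 to 55388530, plus strand) reached 3295 counts with RNA-Best and 4106.58 with RNAlater, or 61.1 CPM (interval 59.0 to 63.2) and 91.4 CPM (88.7 to 94.3). The ratio was 0.668 (0.638 to 0.700). Ghrhr ranked 2344th of all genes in RNA-Best and 1686th in RNAlater.

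Ghsr, the ghrelin receptor, had the fewest counts of the 6 genes. Ghsr (ENSMUSG00000051136.1, chromosome 3, 27371351 to 27378010, plus strand) was counted 51 times in RNA-Best and 42 times in RNAlater, or 0.946 CPM (0.704 to 1.24) and 0.935 CPM (0.674 to 1.26). The ratio of 1.01 had an interval of 0.659 to 1.56, so a difference of up to about that size was not detectable at this depth. With a mean of 0.940 CPM, Ghsr was the only one of the 6 genes below the limit of 1 CPM used for comparisons with all genes, and 5 passed.

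Drd2, the dopamine D2 receptor, had whole counts in both libraries. Bulk libraries of whole glands do not show which cells held this message. Drd2 (ENSMUSG00000032259.7, chromosome 9, 49340627 to 49408177, plus strand) was counted 1001 times in RNA-Best and 930 times in RNAlater, or 18.6 CPM (17.4 to 19.8) and 20.7 CPM (19.4 to 22.1). The ratio was 0.897 (0.819 to 0.982).

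Prlr, the prolactin receptor, had a lower level in RNA-Best, as Ghrhr did. Prlr (ENSMUSG00000005268.20, chromosome 15, 10177238 to 10349180, plus strand) reached 1228.3 counts with RNA-Best and 1572.58 with RNAlater, or 22.8 CPM (21.5 to 24.1) and 35.0 CPM (33.3 to 36.8). The ratio was 0.651 (0.603 to 0.701). A second protein-coding gene, Gm21973, overlaps Prlr on the same strand and had 0 counts in both libraries. Prlr has 12 annotated transcripts, from which long and short forms of the receptor are made, and the counts per gene do not separate them.

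Levels of different genes were compared as CPM per kb of merged exons. Prl stood at 167368 in RNA-Best and 122374 in RNAlater, and Gh at 70812 and 68885. The receptors lay far below both hormones. Ghrhr stood at 17.5 CPM per kb in RNA-Best and 26.2 in RNAlater, Drd2 at 7.29 and 8.13, Prlr at 1.49 and 2.28, and Ghsr at 0.213 and 0.211. The order of the 6 genes was the same in both libraries, and no neighbouring genes in it had overlapping counting intervals. Per length, Gh exceeded its releasing-hormone receptor 4040-fold in RNA-Best and 2627-fold in RNAlater. Prl exceeded Drd2 22960-fold and 15054-fold. These folds depend on the length assigned to each gene. The merged exons of Ghrhr (3487 bases) include those of a retained-intron transcript, and with its median transcript (1550 bases, also its longest protein-coding one) Ghrhr stood at 39.4 and 59.0 CPM per kb, while Gh has 1 transcript and kept its level. The place of Prlr in the order also depended on its length. The merged exons of Prlr span 15339 bases, its longest transcript 9900 and its median transcript 1243.5, and with the median length Prlr ranked above Drd2 in both libraries, at 18.3 and 28.2 CPM per kb.

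**Figure D1:**
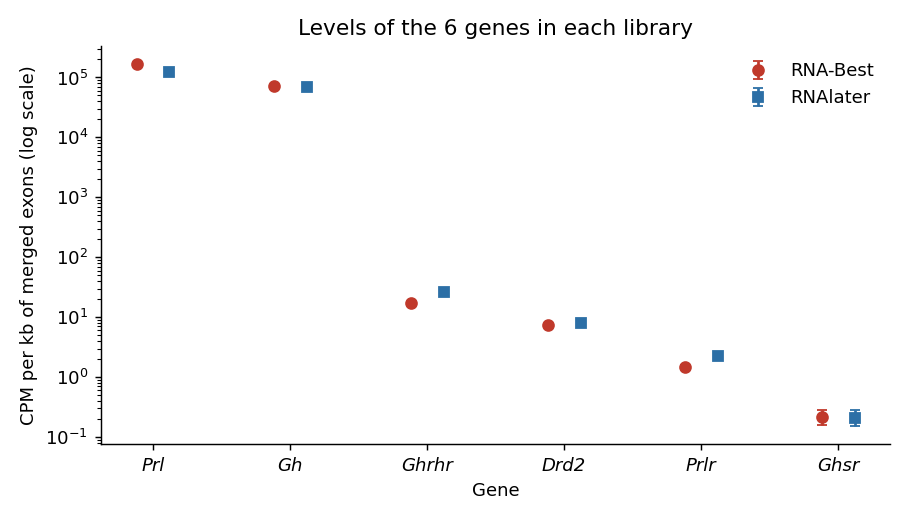
Level of each gene in CPM per kb of merged exons (log scale), with RNA-Best as circles and RNAlater as squares and bars for the 95% counting interval (1 library each, bars mostly smaller than the symbols). The hormones Prl and Gh lie between 68885 and 167368 CPM per kb and the 4 receptors between 0.211 and 26.2.

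The comparison of the reagents was read on log2 ratios of RNA-Best to RNAlater with 0.5 CPM added. Of the 6 genes, 0 were 2-fold apart in either direction, against 5.27% of the 16504 genes whose mean reached 1 CPM. Of those 16504 genes, 4.99% were at least 2-fold lower in RNA-Best and 0.273% at least 2-fold higher. At 1.5-fold, 1 of the 6 (Prlr, whose interval spans that limit) was lower and 0 were higher, against 18.8% and 3.22% of all genes. The log2 ratio was 0.45 for Prl, 0.04 for Gh, 0.01 for Ghsr, -0.15 for Drd2, -0.58 for Ghrhr and -0.61 for Prlr. Lower values in RNA-Best were thus found for 3 of the 6 genes, all of them receptors, where 67% of all genes were lower and 33% higher. Below the median of all genes lay 2 of the 6, where by definition 50% of genes do. These counts of members are too small to be set apart from those shares.

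The sign of a small ratio depended on the scaling. The median log2 ratio of all genes was -0.18 by CPM, and it was -0.01 by TMM and -0.06 by the total without Prl and Gh. Measured from that CPM median, Prl lay 0.63 higher, Gh 0.22 higher, Ghsr 0.19 higher and Drd2 0.02 higher, whereas Ghrhr lay at -0.40 and Prlr at -0.43. The ratios of Prl and Gh were above 0 and those of Ghrhr and Prlr below 0 under each of the 4 scalings. Drd2 changed sign, to 0.02 by TMM and 0.03 by DESeq2 size factors.

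**Figure D2:**
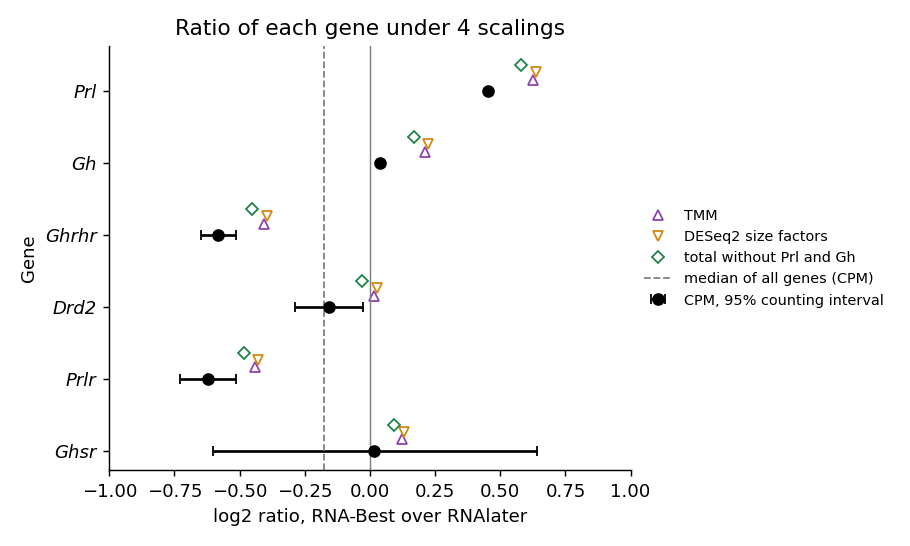
Log2 ratio of RNA-Best over RNAlater for each gene. Black circles are ratios of CPM without a pseudocount, with bars for the 95% counting interval, and open symbols are ratios with 0.5 CPM added under 3 other scalings. The dashed line is the median of all genes by CPM, -0.18. Ghrhr and Prlr lie left of that line under each scaling and Prl and Gh right of 0.

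Shares within a library do not depend on the scaling. Prl made up 79.4% of the Prl and Gh counts with RNA-Best (79.41% to 79.45%) and 74.4% with RNAlater (74.34% to 74.40%), a difference of 5.06 percentage points. There were 3.86 Prl counts for each Gh count in RNA-Best and 2.90 in RNAlater. The balance of hormone to receptor depended on the receptor. For each Ghrhr count there were 999 Gh counts in RNA-Best and 649 in RNAlater, and for each Drd2 count there were 12693 and 8322 Prl counts. For each Ghsr count there were 64529 and 63503 Gh counts, which rest on the few counts of Ghsr.

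Among the receptors, Ghrhr and Prlr stood in nearly the same proportion in both libraries. Prlr made up 27.2% of the Prlr and Ghrhr counts with RNA-Best (25.9% to 28.5%) and 27.7% with RNAlater (26.5% to 28.9%), and these intervals overlap. Drd2 did not follow them. Ghrhr made up 76.7% of the Ghrhr and Drd2 counts with RNA-Best (75.4% to 78.0%) and 81.5% with RNAlater (80.4% to 82.6%), and Prlr made up 55.1% of the Prlr and Drd2 counts (53.0% to 57.2%) against 62.8% (60.9% to 64.7%). These intervals do not overlap, and they describe the libraries at hand.

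The 6 genes differ in transcript length, and the median log2 ratio of all genes was lower in each longer class (0.28 up to 1 kb and -0.90 over 10 kb), so each gene was set beside genes of its own length class. Gh (862 bases) and Prl (895 bases) belong to the class of up to 1 kb, where the median log2 ratio of 2089 genes was 0.28 and the quartiles were 0.02 and 0.52. Prl lay 0.17 above that median, at the 67.9th percentile, and Gh lay at -0.24 relative to it, at the 26.5th. This placing depended on the settings. With median transcript lengths both hormones lay above their class, Gh by 0.046 and Prl by 0.46. Among genes with a mean of 10 CPM or more Prl lay 0.018 above, at the 51.9th percentile, and Gh at -0.39, at percentile 14.2.

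By its longest transcript (9900 bases) Prlr was close to its class. The 1757 genes of 6-10 kb had a median of -0.65, and Prlr was 0.04 above it, at the 53.7th percentile. Prlr is near the upper end of that class, whose median length was 7173 bases, and genes over 10 kb had a median of -0.90. The closeness thus depended on the limits of the class. By its median transcript (1243.5 bases) Prlr belonged to the class of 1-2 kb instead and lay at -0.47 relative to that class, at the 12.6th percentile. Drd2 also changed sign with median transcript lengths, to 0.14. By longest transcripts Drd2 (2547 bases) was also close, at -0.06 relative to the median of 3108 genes of 2-3 kb and at the 40.9th percentile. Ghsr (4433 bases) lay 0.41 above its class, and the class median of -0.40 was inside its counting interval.

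By longest transcripts, Ghrhr (2565 bases) was the member farthest below its class. It lay at -0.49 relative to the median of genes of 2-3 kb, at percentile 6.72. The longest Ghrhr transcript is annotated as a retained intron, and the longest protein-coding one has 1550 bases. Placed by that length among 2640 protein-coding genes of 1-2 kb, a comparison added after the values were seen, Ghrhr lay at -0.66, at the 2.65th percentile. Over the other alternatives its percentile was between 4.49 and 13.9. The last of these was with median transcript lengths, where Ghrhr lay at -0.44 and Prlr was farther below its class.

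**Figure D3:**
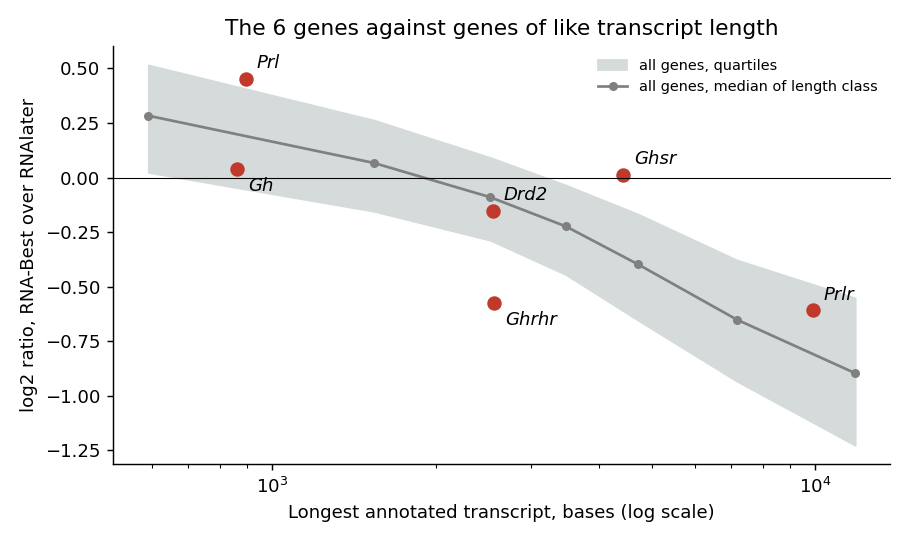
Log2 ratio of RNA-Best over RNAlater against the longest annotated transcript (bases, log scale). Red points are the 6 genes, the grey line joins the medians of all genes in 7 length classes and the band their quartiles. Line and band are drawn at the median length of each class. Ghrhr lies below the band as drawn, and Ghsr and Prl lie above it. Inside the band, Gh lies below the line, Prlr above it and Drd2 near it.

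With 2 libraries, the likeness of genes rests on their levels in both and on a single ratio. By the distance of log2(CPM + 0.5) over these 2 libraries, the protein-coding gene nearest to Ghrhr was Dusp8 (60.3 CPM in RNA-Best and 92.0 in RNAlater), to Prlr Mxra8 (22.6 and 35.2), to Drd2 Sms (18.5 and 20.7) and to Ghsr Nxf7 (0.955 and 0.924). Prl and Gh were each other's nearest gene, at a distance of 2.48, whereas the others lay within 0.03 of theirs.

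Genes that act around growth hormone release and action formed the first of the pathway lists. Of 15 genes, 9 reached a mean of 1 CPM, and 7 of these were lower in RNA-Best (6 by TMM and by DESeq2 size factors), with a median log2 ratio of -0.23. Of all genes, 67% were lower by CPM, 51.4% by TMM, 50.4% by DESeq2 size factors and 55.5% by the total without Prl and Gh, and the counts of this list are near those shares. Pou1f1, the transcription factor that both cell types require, stood at 93.6 CPM and 87.8 CPM in RNA-Best and RNAlater, with a log2 ratio of 0.09 (0.03 to 0.15) and the highest of the list. Somatostatin receptors restrain growth hormone release. Sstr2 was counted 108 times in each library, with a log2 ratio of -0.21 (-0.66 to 0.13), and Sstr5 stood at 8.01 and 8.86 CPM, with -0.14 (-0.34 to 0.05), so both intervals included 0. Sstr3, at 14.1 and 19.2 CPM, stood at -0.43 (-0.59 to -0.30), an interval that did not include 0, and Sstr1 at 0.08 (-0.11 to 0.29). The growth hormone receptor Ghr was at 8.59 and 14.7 CPM, with -0.75 (-0.95 to -0.61). Igf1, the growth factor induced by growth hormone, was at 6.70 and 7.95 CPM, with -0.23 (-0.46 to -0.03). Igfbp3, a binding protein of that factor and the most abundant gene of the list, was at 185 and 308 CPM, with -0.73. Igf1r, its receptor, was lowest at -1.12 (-1.28 to -1.02) and the only one at least 2-fold lower by CPM. By TMM, by DESeq2 size factors and by the total without Prl and Gh, 0 genes of the list were. Ghrh and Sst, the hypothalamic peptides that act on these cells, had 0 counts in both libraries, which allows up to 0.0556 CPM (RNA-Best) and 0.0668 CPM (RNAlater).

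Regulators of prolactin were the next list. Of 20 genes, 19 were matched and 8 passed 1 CPM, and 6 of these were lower in RNA-Best (5 under each other scaling), with a median of -0.38, again near the shares of all genes (67% by CPM and 50.4% to 55.5% under the other scalings). The oestrogen receptor Esr1, through which oestradiol stimulates lactotropes, had 86.5 and 114 CPM, with a log2 ratio of -0.40 (-0.46 to -0.34). Gal, which encodes galanin, a peptide that lactotropes make, had 118 and 109 CPM and 0.11 (0.06 to 0.16). Vip, another peptide that stimulates prolactin, was highest at 0.28 (0.11 to 0.48), and Tgfb1, a growth factor that restrains lactotropes, was lowest at -1.05 (-1.27 to -0.93). Trhr, the thyrotropin-releasing hormone receptor, stood at 2.54 and 2.60 CPM. Below 1 CPM were the vasoactive intestinal peptide receptors Vipr1 (34 and 31 counts) and Vipr2 (21 and 31.2 counts) and Th, the enzyme of dopamine synthesis, with 9 counts in each library. Of the other dopamine receptors, Drd1 and Drd3 had at most 10 counts in a library, and Drd4 and Drd5 had 0 in both.

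Jak-Stat genes carry the signal of Ghr and Prlr. All 16 passed 1 CPM and all 16 were lower in RNA-Best by CPM, where 67% of all genes were. Under each of the other scalings 14 were lower, where 50.4% to 55.5% of all genes were, and 14 lay below the median of all genes. Their median log2 ratio was -0.44, against -0.18 for all genes. Of the 16, 12 were also below the median of their own length class, where by definition about 50% of genes are. Jak2, the kinase bound to both receptors, had 79.6 and 132 CPM, with a log2 ratio of -0.73 (-0.79 to -0.68). Stat5b and Stat5a, the transcription factors it activates, stood at -0.46 (-0.52 to -0.40) and -0.37 (-0.45 to -0.30). Of the feedback inhibitors of the pathway, Socs2 stood at -0.24 (-0.31 to -0.17), Cish at -0.23 (-0.33 to -0.15) and Socs3, the most abundant gene of the list at 606 and 802 CPM, at -0.40 (-0.42 to -0.38). The ends were Jak3 at -1.28 (-1.58 to -1.16) and Socs1 at -0.00 (-0.15 to 0.15).

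G proteins, adenylyl cyclases and protein kinase A subunits lie below Ghrhr, which raises cyclic AMP, and Drd2, which lowers it. The list also held a few transcription factor and potassium channel genes. All 27 genes passed, and 23 were lower in RNA-Best by CPM (19 by TMM and by DESeq2 size factors), with a median of -0.35, beside 67% of all genes by CPM, 51.4% by TMM and 50.4% by DESeq2 size factors. Gnas, which encodes the stimulatory alpha subunit, had 181 and 238 CPM, with a log2 ratio of -0.40 (-0.44 to -0.36). Prkar1a, a regulatory subunit of protein kinase A and the most abundant gene here, had 491 and 493 CPM and -0.01 (-0.03 to 0.02). The adenylyl cyclase genes held both ends, with Adcy6 at -1.26 (-1.32 to -1.21) and Adcy8 at 0.13 (-0.32 to 0.70). Of the 27, 15 were below the median of their length class, where by definition about 50% of genes are. In the growth hormone list 6 of 9 were, and in the prolactin list 4 of 8.

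Over these lists 60 genes passed 1 CPM. At least 2-fold lower were 6 and at least 2-fold higher 0, against 4.99% and 0.273% of all genes. Under each of the 3 other scalings 3 were at least 2-fold lower, while over all genes the number was between 419 and 532 in place of 824.

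**Figure D4:**
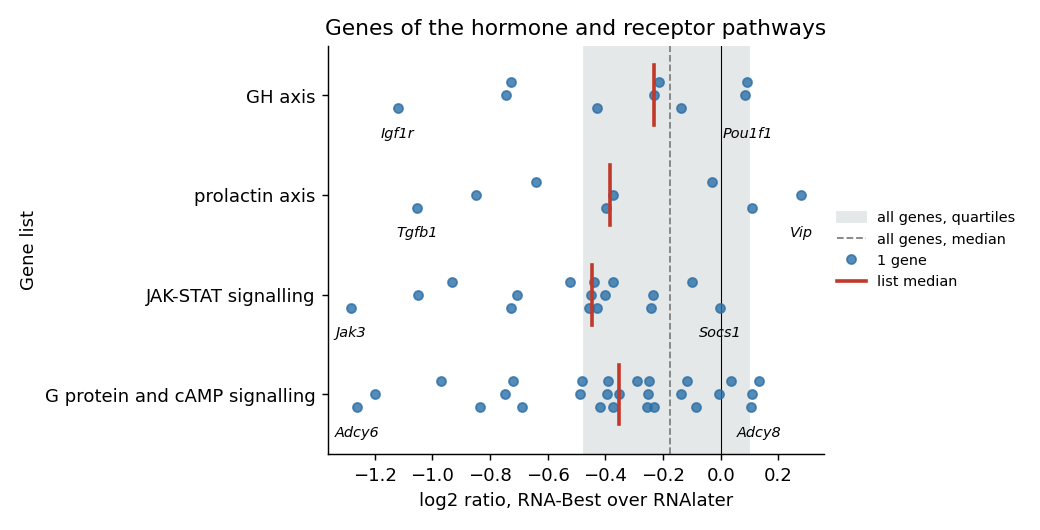
Log2 ratio of RNA-Best over RNAlater for each gene that reached a mean of 1 CPM in the 4 pathway lists (points spread vertically for legibility), with red bars for list medians, the dashed line for the median of all genes and the shaded span for their quartiles. List medians lie between -0.23 and -0.44, and the named genes are the lowest and highest of each list.

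The labelled tissue was checked by markers of its cell types, and some of these moved with the results above. Other endocrine cells were present in both libraries, with Pomc at 9550 and 6843 CPM, Lhb at 145 and 120 and Tshb at 52.9 and 31.6 in RNA-Best and RNAlater. Lower in RNA-Best were 4 of 6 corticotrope and melanotrope markers (summed 9703 and 6990 CPM), 2 of 4 gonadotrope markers (250.3 and 213 CPM) and 1 of 2 thyrotrope markers (94.0 and 81.3 CPM). Of all genes, 67% were lower by CPM, a share that stands beside every count of markers here. The summed level of 5 somatotrope markers (Gh included, 4 of 5 lower in RNA-Best) was 62265 and 60714 CPM and that of 4 lactotrope markers (Prl included, 2 of 4 lower) 235836 and 172484 CPM. Beyond Gh and Ghrhr, the somatotrope markers Dlk1, Rxrg and Pappa2 had log2 ratios of -0.05, -0.13 and -0.93. Beyond Prl and Drd2, the lactotrope markers Edil3 and Angpt1 stood at 0.11 and -0.08. Markers of non-endocrine cells were mostly lower in RNA-Best. Their counts are given without regard to transcript length, although the median ratio of all genes was lower in each longer class. The 5 endothelial markers summed to 313 and 618 CPM (5 of 5 lower, Pecam1 at -1.13). The 5 pericyte and fibroblast markers summed to 525 and 687 CPM (5 of 5 lower, Col1a1 at -1.37). Most of that sum was Col1a2, at 376 and 425 CPM, with -0.18. The 4 stem and folliculostellate markers summed to 140.4 and 219.7 CPM (4 of 4 lower, Sox2 at -0.55) and the 3 posterior lobe markers to 40.2 and 85.3 CPM (3 of 3 lower, Nkx2-1 at -1.28). The 5 macrophage markers summed to 145 and 136 CPM (3 of 5 lower, Csf1r at -0.75). The other 2, C1qa and C1qb, were more abundant and higher in RNA-Best, at 0.56 and 0.35. The 3 erythroid markers were higher in RNA-Best, at 1833 and 636 CPM (Hba-a1 at 0.79). Most of that sum was Hbb-bs, at 1333 and 346 CPM, with 1.94. No defining marker was at 0. Their part in the ratios of the 6 genes and the pathway lists was not tested.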

How the data were processed

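Poly(A) RNA of 2 samples was sequenced, 1 in RNA-Best and 1 in RNAlater, from libraries made with the Illumina TruSeq LT mRNA kit. The authors deposited 1 table of estimated counts per Ensembl gene, not normalized. The submitters' processing notes name STAR 2.5.1b, featureCounts 1.5.0-p1 and mm10. The methods give the GENCODE M8 annotation for the cell line libraries. Of the values above 0, 35.4% in RNA-Best and 34.9% in RNAlater held fractions of reads, and the option that divided reads and the strand setting are not given in the sources used here, so reads of overlapping or near-identical genes cannot be told apart.

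Symbols, positions and lengths came from GENCODE M21 on GRCm38, which matched 98.9% of identifiers by their unversioned part. CPM were computed from library totals. Log2 ratios carried a pseudocount of 0.5 CPM, which understates those of weak genes, and comparisons with all genes used those whose mean reached 1 CPM. Intervals (95%) came from exact binomial limits on counts rounded to whole numbers, without the pseudocount. TMM factors (edgeR 4.0.16) and size factors (DESeq2 1.42.0, both under R 4.3.3), set to keep the geometric mean of the totals, were alternatives, besides other pseudocounts, filters, fold limits and lengths. Other steps ran in Python 3.11.15 (scipy 1.17.1, pandas 2.3.3, numpy 2.4.6) and were tested on simulated data. A count of 0 allows up to 3 counts per library.

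The members and lists were chosen with earlier results of these data known. Named were the 6 genes, genes of stated function in each list, each list's most abundant, highest and lowest gene, the nearest gene, overlapping genes and 1 defining marker per cell type. Ghrh, Sst, Sstr1, Sstr3, Drd1, Drd3, Drd4, Drd5, Prl3d1, Dlk1, Rxrg, Pappa2, Edil3 and Angpt1 were named after their values were seen. The same holds for Hbb-bs. With 1 library per group, the voom model that the study applied to its cell line libraries could not be fitted. The promoters came from RefSeq and the primers from the study's list of qPCR assays.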

Additional observations from a re-analysis of the deposited data

How the results depend on the processing

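No paired analysis was possible because RNA-Best and RNAlater were represented by 1 library each, which also precluded leaving one out. Except where a reason is stated, the cause was not tested. Scaling changed the number of genes at least 2-fold lower and higher in RNA-Best from 824 and 45 to 434 and 110 by TMM, 419 and 118 by DESeq2 size factors, and 532 and 83 without Prl and Gh in the total. With 2 CPM added 519 were lower. Fold limits of 1.5 and 4 gave 3096 and 531, and 9 and 1. Genes with whole counts alone gave 494 and 5. That set held 473 in place of 2089 genes of up to 1 kb and 1911 in place of 3108 of 2-3 kb. The pathway genes at least 2-fold lower numbered 3 in place of 6 under each of these 3 scalings, with 2 CPM added and with a mean of at least 10 CPM, 18 at 1.5-fold and 0 at 4-fold. Of the 6 genes, 1 (Prlr) was at least 1.5-fold lower, where 18.8% of all genes were. Drd2 stood at 0.015 by TMM and 0.027 by DESeq2 size factors, and at -0.091 relative to the median of all genes without a filter. Over scalings and pseudocounts the log2 ratio ranged from 0.45 to 0.64 for Prl, 0.04 to 0.22 for Gh, -0.58 to -0.39 for Ghrhr and -0.62 to -0.43 for Prlr. Without genes of the mitochondrial genome, Prl took 24.2% and 17.6% of the counts and Gh 6.26% and 6.08%. The order of levels per length had 4 of 6 genes in the same place with median transcript lengths, as Drd2 and Prlr changed places, and it was unchanged with the longest transcript or, added after seeing the data, the longest protein-coding one. With median transcript lengths, the position within the length class changed sign for Gh (0.046), Drd2 (0.14) and Prlr (-0.47). Depth limited Ghsr most.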
